A study of Mus musculus with 3 samples.

Results

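The clustered protocadherins are 57 protein-coding genes in 3 neighbouring families on mouse chromosome 18, and their 5-hydroxymethylcytosine (5hmC) is described here in cerebellum. The genes were taken by symbol from a RefSeq table of GRCm38, as those that start with Pcdha, Pcdhb or Pcdhg, out of 21900 protein-coding genes. There are 14 alpha, 22 beta and 21 gamma genes, which together span 911.6 kb. The deposited table gives 1 level per library for each bin of 10 kb, and 92 bins (chromosome 18, 36930001 to 37850000) cover the region out of 264399 listed. The alpha genes overlap 26 of these bins, the beta genes 27 and the gamma genes 19, with 7 bins between alpha and beta and 13 between beta and gamma. All 92 had a value in every library.

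There were 3 libraries of genomic DNA from mouse cerebellum, 1 per group. One came from normal cerebellum and one from cerebellum under chronic sleep deprivation, both made by DDD-seq (double-stranded DNA deamination sequencing), in which glycosylated 5hmC resists the deaminase SsdAcat and unprotected cytosines are converted. The third library was made by ACE-seq, an APOBEC-coupled method on the same principle, from tissue whose treatment label is also normal or control. The sources used here name no strain, age, number of animals or schedule of sleep deprivation. Where 3 values stand together, their order is DDD-seq control, sleep-deprived, ACE-seq. The values of both DDD-seq columns may be pooled, since their headers carry the word "all". Depth per bin is unknown, so no counting interval can be given, and since each group is a single library, no difference has a replicate check or a test: every comparison below is one of libraries. In bulk tissue, a change in the 5hmC of a cell type and a change in how many such cells were sampled cannot be told apart.

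Clustered protocadherins are cadherin-like adhesion molecules of neurons that help a neuron tell its own branches from those of others. In the alpha and gamma clusters each gene has its own large variable exon, with its own promoter, which is spliced to constant exons shared by the whole cluster, whereas the beta genes consist of a single exon each. Most isoforms are chosen by single neurons in a seemingly random combination, which involves DNA methylation and CTCF at their promoters, while the C-type isoforms (Pcdhac1, Pcdhac2, Pcdhgc3, Pcdhgc4 and Pcdhgc5) are expressed more widely. 5hmC is made from 5-methylcytosine by TET enzymes and is abundant in neuronal DNA. In the gene table, the 14 alpha spans ended within 1240 bp of each other and the 21 gamma spans within 10 bp, so that these genes are nested in one another and share most bins. The beta spans were 2340 to 5271 bp long and did not share an end.

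The level was low over the arrays of variable genes and high in 2 short stretches near the C-type genes, and this shape was seen in all 3 libraries. The 48 bins of the 3 arrays (Pcdha1 to Pcdha12, the beta genes, and Pcdhga1 to Pcdhga12) had a mean level of 1.07% ± 0.31 (SD over bins) in the control, 1.04% ± 0.24 under sleep deprivation and 1.09% ± 0.34 by ACE-seq. The median over all genic autosomal bins was 1.49%, 1.48% and 1.45% in the same order. A level of at least 2% in all 3 libraries was found in 7 of the 92 bins. It was found in 8.56% of all bins of the genome and 15.2% of genic autosomal bins, so such bins were not more frequent in the region. Of the 7 bins, 4 lay around Pcdhac2 and 3 between Pcdhga12 and Pcdhgc3. None of the 27 beta bins reached that level in all 3 libraries.

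**Figure D1:**
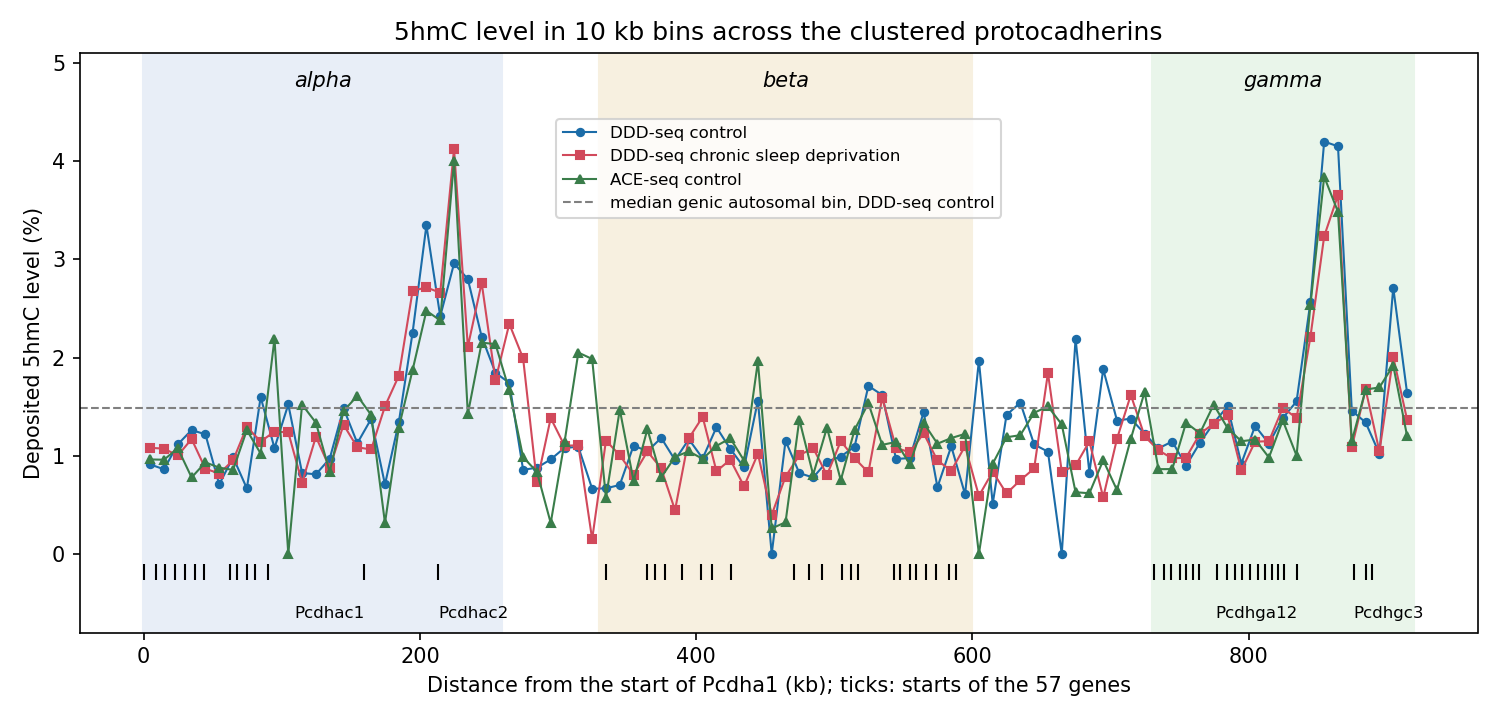
5hmC level (%) of each 10 kb bin against its distance from the start of Pcdha1, with 1 line per library, ticks at the 57 gene starts and the alpha, beta and gamma parts shaded. Over the gene arrays the means are 1.07%, 1.04% and 1.09%, with single bins from 0 to 2.19%. Near Pcdhac2 the highest bin is 37130001 to 37140000 in the DDD-seq control (3.35%). It is 37150001 to 37160000 under sleep deprivation (4.12%) and by ACE-seq (4.0%). Between Pcdhga12 and Pcdhgc3 it is 37780001 to 37790000 in the DDD-seq control (4.20%) and by ACE-seq (3.84%). It is 37790001 to 37800000 there under sleep deprivation (3.65%).

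The families differed in their mean level. The alpha part had 1.48% ± 0.75 (SD over 26 bins) in the control, 1.55% ± 0.82 under sleep deprivation and 1.43% ± 0.80 by ACE-seq. The beta part had 1.02% ± 0.35, 0.973% ± 0.250 and 1.06% ± 0.36 over 27 bins, the lowest of the families in each library. The gamma part had 1.71% ± 0.99, 1.54% ± 0.76 and 1.59% ± 0.83 over 19 bins. Among consecutive autosomal windows of the same number of bins, the beta mean lay at percentile 3.48 of 8852 windows in the control, 1.91 under sleep deprivation and 6.34 by ACE-seq. The alpha mean lay near the middle of such windows (percentiles 53.5, 62.5 and 53.2 of 9194) and the gamma mean above it (75.5, 61.9 and 71.2 of 12584). The alpha and gamma means thus combine low arrays with high stretches.

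In the alpha cluster, Pcdha1 to Pcdha12 carry the variable exons that are chosen at random. Their 10 bins had a mean of 1.04% ± 0.28 (SD over bins) in the control, 1.07% ± 0.16 under sleep deprivation and 1.09% ± 0.41 by ACE-seq. The bin that holds a gene's start is used for its own end of the span, since the rest is shared. It is not the level of the variable exon alone. A start bin can hold several starts, up to 3 in gamma. Where a start lies near a bin edge, as for Pcdha2 (36939205), most of the exon may lie in the next bin. Over these 12 alpha genes, which start in 9 bins, the level of the start bin ranged from 0.668 to 1.60% in the control. It ranged from 0.868 to 1.29% under sleep deprivation and 0.779 to 2.19% by ACE-seq. Pcdha1 and Pcdha2 share a start bin, with 0.912%, 1.08% and 0.963% in the same order of libraries. The start bin of Pcdha10 had 0.668%, 1.29% and 1.26%, the lowest alpha bin of the DDD-seq control. At Pcdha12 the ACE-seq library stood apart, with 2.19% against 1.08% and 1.25% in the DDD-seq libraries.

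The 6 bins between Pcdha12 and Pcdhac1 were as low as the array, with means of 1.12%, 1.07% and 1.13%. One of them (37030001 to 37040000) was listed at 0 by ACE-seq. The start bin of Pcdhac1, the first C-type gene, had 1.38%, 1.06% and 1.42%. Pcdhac2, the second C-type gene, was the only alpha gene whose start bin was over 2% in every library, with 2.42%, 2.66% and 2.38%.

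The high stretch of alpha began before Pcdhac2 and ran through the shared end of the cluster, which holds the constant exons. It is set out here as the 7 bins from 37120001 to 37190000, bounds set with the values in view. Their mean was 2.55% ± 0.51 (SD over bins) in the control, 2.69% ± 0.735 under sleep deprivation and 2.35% ± 0.81 by ACE-seq. The highest bin of the DDD-seq control was the last before Pcdhac2 (37130001 to 37140000), with 3.35% there, 2.71% under sleep deprivation and 2.48% by ACE-seq. The highest bin of both other libraries was the next after the Pcdhac2 start bin (37150001 to 37160000), with 4.12% in the sleep-deprived library and 4.0% by ACE-seq against 2.96% in the DDD-seq control. The third-ranked bin of the DDD-seq control (37160001 to 37170000) had 2.80%, 2.11% and 1.43%. The libraries thus differed in which bin was the summit. The 5 lowest alpha bins of the DDD-seq control had 0.668 to 0.824% there, 0.727 to 1.50% under sleep deprivation and 0.314 to 1.52% by ACE-seq. They were the Pcdha10 start bin, 37100001 to 37110000, 36980001 to 36990000, 37050001 to 37060000 and 37040001 to 37050000.

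Bounds given by the genes rather than the values show the same contrast. The 5 bins from Pcdhac2 to the end of alpha had 2.45% in the control, 2.68% under sleep deprivation and 2.42% by ACE-seq, which was 2.35, 2.52 and 2.21 times the mean of the Pcdha1 to Pcdha12 bins. In both DDD-seq libraries the lowest of the 5 bins (1.85% and 1.77%) was above the highest bin of the array (1.60% and 1.29%). In the ACE-seq library they overlapped (lowest 1.43%, highest 2.19%, at Pcdha12). Past the last alpha base, the first bin had 1.74%, 2.34% and 1.67% and the second 0.858%, 1.99% and 0.985%, so the sleep-deprived library alone was near 2% that far.

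The 22 beta genes had low levels throughout. Their start bins, 17 in number, ranged from 0.669 to 1.44% in the control, 0.803 to 1.40% under sleep deprivation and 0.573 to 1.37% by ACE-seq. Each of the 22 was under the genic median of its library in all 3 libraries, whereas 29.6% of genic autosomal bins, with or without a gene start, are. Pcdhb1, which lies apart from the other beta genes at the alpha side, had 0.669%, 1.15% and 0.573%. Pcdhb19 had the highest start bin in the DDD-seq control, with 1.44%, 1.23% and 1.33%, and Pcdhb6 the highest in the sleep-deprived library, with 0.973%, 1.40% and 0.969%.

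Beta bins without a gene start were about as low as those with one in the DDD-seq control (1.03% over 10 bins against 1.01% over 17) and by ACE-seq (1.06% in both). They had 0.867% against 1.04% in the sleep-deprived library. The 5 highest beta bins of the DDD-seq control had 1.29 to 1.71% there, 0.830 to 1.59% under sleep deprivation and 1.10 to 1.96% by ACE-seq. They were 37450001 to 37460000, 37460001 to 37470000, 37370001 to 37380000 and the start bins of Pcdhb19 and Pcdhb7. The 5 lowest had 0 to 0.703%, 0.398 to 1.15% and 0.260 to 1.47%. They were 37380001 to 37390000, listed at 0 in the DDD-seq control, then 37520001 to 37530000, the start bins of Pcdhb1 and Pcdhb20, and 37270001 to 37280000. Levels of the beta genes are uncertain to the extent that reads of similar copies were divided between them by the authors' mapping, and the same holds for the alpha and gamma arrays.

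The gamma cluster has 12 genes of type A, 6 of type B and 3 of type C. The 11 bins from Pcdhga1 to Pcdhga12 had a mean of 1.22% ± 0.22 (SD over bins) in the control, 1.18% ± 0.21 under sleep deprivation and 1.16% ± 0.21 by ACE-seq. Types A and B are interleaved and share many bins. The start bins of the 12 type A genes had medians of 1.14%, 1.15% and 1.16%, and those of the 6 type B genes 1.02%, 1.06% and 1.25%. Pcdhgb4 and Pcdhga8, which start in the same bin, had 0.921%, 0.850% and 1.15%. Pcdhgb7 and Pcdhga11, also in 1 bin, had 1.38%, 1.49% and 1.36%.

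Between Pcdhga12 and Pcdhgc3, whose starts lie 40.83 kb apart, the mean level was the highest of the segments in each library, although the highest single bin lay in alpha under sleep deprivation and by ACE-seq. For the type A and B genes this interval is part of the long intron before the shared exons, and it is upstream of the C-type genes. The bin 37770001 to 37780000 had 2.56% in the control, 2.21% under sleep deprivation and 2.53% by ACE-seq. The next bin (37780001 to 37790000) had 4.20%, 3.23% and 3.84%, and the last (37790001 to 37800000) 4.15%, 3.65% and 3.48%. On average the 3 bins had 3.64% ± 0.93, 3.03% ± 0.74 and 3.28% ± 0.68 (SD over bins), which was 2.99, 2.57 and 2.83 times the Pcdhga1 to Pcdhga12 bins. In each library, the lowest of the 3 bins (2.56%, 2.21% and 2.53%) was above the highest of the 11 array bins (1.55%, 1.49% and 1.52%).

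The stretch ended at the C-type genes. The start bin of Pcdhgc3 had 1.46%, 1.09% and 1.15%, and that shared by Pcdhgc4 and Pcdhgc5 had 1.34%, 1.68% and 1.67%. Of the 3 bins after them, which reach the shared end, only 37830001 to 37840000 was well above the genic median in all libraries, with 2.71%, 2.01% and 1.92%. The last bin, 37840001 to 37850000, had 1.64%, 1.37% and 1.20%, but gamma covers only its first part, up to 37841873. The 5 lowest gamma bins of the DDD-seq control had 0.898 to 1.12%, 0.850 to 1.15% and 0.863 to 1.70%. They were 37820001 to 37830000 and the start bins of Pcdhgb1, Pcdhga4 and Pcdhgb2, of Pcdhgb4 and Pcdhga8, of Pcdhga1 and Pcdhga2, and of Pcdhgb6 and Pcdhga10. Alpha and gamma therefore differed in where the high bins lay. In alpha the bins after the last gene start had a mean of 2.45%, 2.69% and 2.43% against 1.30%, 1.34% and 1.25% for those from the first to the last gene start. In gamma the corresponding means were 1.79%, 1.47% and 1.61% against 1.69%, 1.55% and 1.59%, since its high stretch lay before the C-type genes.

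**Figure D2:**
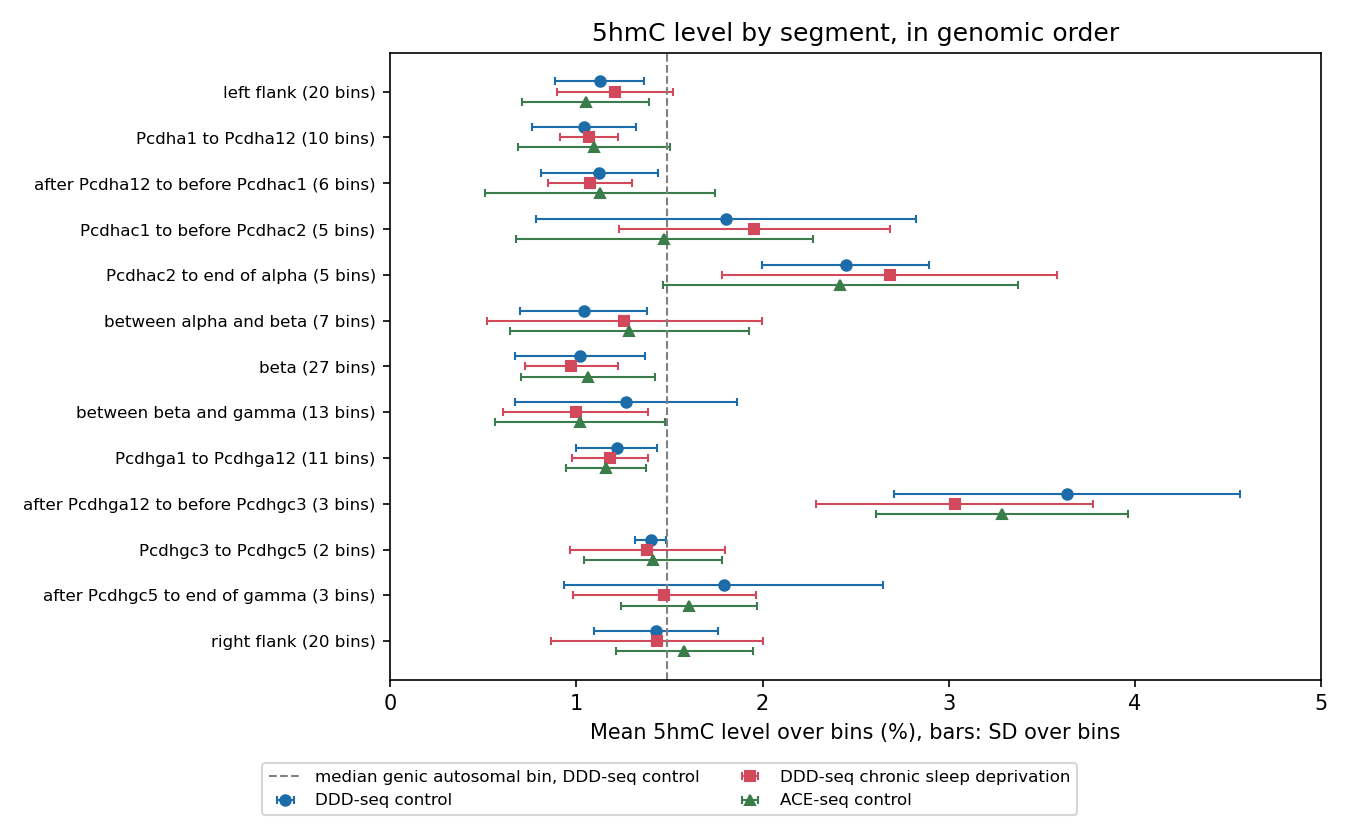
Mean 5hmC level (%) of each segment of the region and of 200 kb on either side, in genomic order, with 1 point per library and bars for the SD over bins. The segment from Pcdhac2 to the end of alpha (2.42 to 2.68%) and that between Pcdhga12 and Pcdhgc3 (3.03 to 3.64%) lie to the right of all others.

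Over all 57 genes, 47 had a start bin under the genic median of each of the 3 libraries, against 29.6% of genic autosomal bins. That share covers bins with and without a gene start, and none was computed for start bins of other genes. The 47 were 11 of 14 alpha, 22 of 22 beta and 14 of 21 gamma genes. The 57 starts fall in only 41 bins, 33 of which were under the median in all 3 libraries, and 31 genes share their start bin with another member. The gene-body means give another order, because nested genes share the high stretches. All 14 alpha and all 21 gamma bodies were above the median of all protein-coding gene bodies in each library, with family medians of 1.59% and 1.88% in the DDD-seq control, while 1 of 22 beta bodies was in the DDD-seq libraries and 2 of 22 by ACE-seq. Within alpha the body mean was 1.48% at Pcdha1, over 26 bins, and 2.45% at Pcdhac2, over 5. Within gamma it was 1.71% at Pcdhga1, 2.29% at Pcdhga12 and 1.63% at Pcdhgc3.

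**Figure D3:**
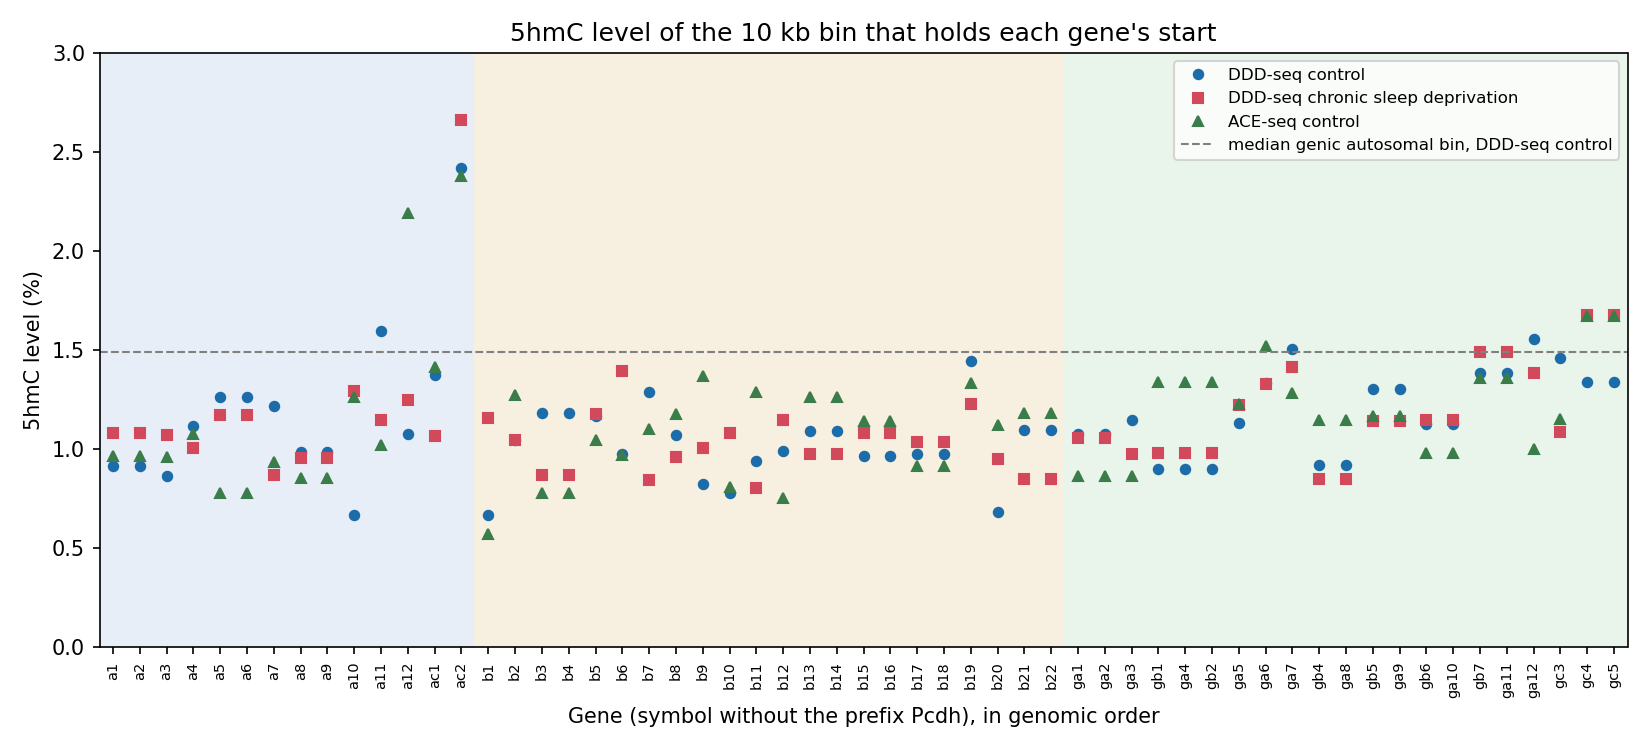
5hmC level (%) of the 10 kb bin that holds the start of each of the 57 genes, in genomic order, with 1 point per library and the genic median of the DDD-seq control as a dashed line. Pcdhac2 lies above 2% in all libraries, the 22 beta genes lie under the line, and neighbouring genes with equal values share a bin.

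The surroundings of the region were not uniform. The 200 kb before alpha, which hold genes such as Hars, Ik and Zmat2, had a mean of 1.12% in the control, 1.21% under sleep deprivation and 1.05% by ACE-seq. The 200 kb after gamma, which hold Diaph1, Hdac3 and Arap3, had 1.43%, 1.43% and 1.58%. The Pcdha1 to Pcdha12 bins differed from the first flank by -0.0834, -0.142 and 0.0413 points. The Pcdhga1 to Pcdhga12 bins were lower than the second flank in each library, with differences of -0.211, -0.252 and -0.421 points. No flanking bin had 2% or more in all 3 libraries. Between beta and gamma, where Slc25a2 and Taf7 lie, the mean was 1.27%, 0.997% and 1.02% and single bins ran from 0 to 2.19% in the DDD-seq control. The gene models Gm37013, Gm38666 and Gm38667 each run from alpha to the end of gamma and overlap 88 to 90 of the 92 bins, so that their body level (1.34% in the DDD-seq control for all 3) is that of the region.

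How far the libraries gave the same profile differed between the families. Across the 19 gamma bins, Pearson's r between the control and the sleep-deprived DDD-seq library was 0.973 and Spearman's rho 0.872, and between the DDD-seq control and ACE-seq 0.928 and 0.535. Across the 26 alpha bins the values were 0.850 and 0.659 for the DDD-seq pair and 0.681 and 0.569 for DDD-seq and ACE-seq. Across the 27 beta bins they were 0.364 and 0.0861 for the DDD-seq pair and 0.496 and 0.210 for DDD-seq and ACE-seq. Bins are not independent replicates, and neighbouring bins share their genomic surroundings, so these values are descriptions. The range of levels was wide in alpha and gamma and narrow in beta.

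The comparison of sleep deprivation with control asks whether 5hmC of these genes differed between the DDD-seq libraries. Subtracting the control from the sleep-deprived library gave 0.0725 ± 0.0853 points (SE over bins) in alpha, with 12 bins higher and 14 lower. It was -0.0449 ± 0.0668 points over beta, with 12 higher and 15 lower. Over gamma it was -0.168 ± 0.0708 points, with 6 higher and 13 lower. The SE measures scatter between bins of 1 pair of libraries, not between animals. Within gamma it was -0.605 ± 0.184 points over the 3 bins between Pcdhga12 and Pcdhgc3, all lower, -0.318 ± 0.212 over the 3 bins after Pcdhgc5 and -0.0349 ± 0.0318 over the 11 array bins. The ACE-seq library, which is also a control, was also lower than the DDD-seq control in each of the 3 bins between Pcdhga12 and Pcdhgc3, with a mean difference of -0.352 ± 0.184 points. In alpha, the 7 bins of the high stretch had a difference of 0.141 ± 0.251 points, 4 higher and 3 lower.

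Bins at least 1.5-fold apart were not more frequent in the region than in the genome. Bins at least 2-fold lower under sleep deprivation were, but most of these lay between the families. In the sleep-deprived library 7 of 90 bins of the region with a value above 0 in both libraries were at least 1.5-fold higher than the control, against 14.9% of all bins, and 10 were at least 1.5-fold lower, against 13.5%. At 2-fold, 2 of 90 were higher, against 5.95% of all bins, and 8 (8.89%) were lower, against 4.97%. Of these 8, 2 lay in beta and the others between the families, with 0 in alpha and 0 in gamma. At 37600001 to 37610000 and 37620001 to 37630000 the ACE-seq control was also lower than the DDD-seq control (0.629% against 2.19%, 0.954% against 1.88%). At 37250001 to 37260000 it was higher (1.99% against 0.664%). At 1.5-fold under sleep deprivation, 2 of 26 alpha bins were higher and 0 lower. In beta 2 of 26 were higher and 4 lower, and in gamma 0 of 19 in either direction. The higher alpha bins were the Pcdha10 start bin (0.668% to 1.29%) and 37100001 to 37110000 after Pcdhac1 (0.708% to 1.50%). Over the 41 bins with a gene start, the difference ranged from -0.453 points at Pcdha11 to 0.627 points at Pcdha10. Its median size was 0.168 points, against 0.304 points over genic autosomal bins. These 2 sets also differ in level, since 33 of the 41 start bins were under the genic median in all 3 libraries. No such size was computed for start bins of other genes.

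The comparison of methods was made between the 2 control libraries. Subtracting DDD-seq from ACE-seq gave -0.0486 ± 0.122 points in alpha, 0.0432 ± 0.0686 in beta and -0.116 ± 0.0874 in gamma, with the SE taken over bins. ACE-seq was at least 1.5-fold higher in 12 of 88 bins of the region, against 14.6% of all bins, and at least 1.5-fold lower in 11, against 18.1%. At 2-fold 4 were higher, against 5.96%, and 5 lower, against 7.41%. Averaged over windows of 50 kb, 0 windows of alpha, beta or gamma were past 1.5-fold by ACE-seq (3.19% of all windows were higher and 4.36% lower) or under sleep deprivation (3.44% and 2.6%). Both alpha counts were 4 of 25 bins; beta had 4 higher and 2 lower of 26, and gamma 1 and 1 of 19. Over the 41 bins with a gene start the difference ranged from -0.575 points at Pcdha11 to 1.11 points at Pcdha12.

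Both comparisons use the same DDD-seq control, so a low or high value of that library enters both. In 5 of 88 bins of the region with values above 0 both other libraries were past 1.5-fold on the same side, 3 higher (against 7.45% of all bins) and 2 lower (against 5.68%). These shares, 3.41% and 2.27%, were under those of the genome. They were higher at the Pcdha10 start bin, at 37520001 to 37530000, where Pcdhb22 ends (0.607% in the DDD-seq control, 1.10% under sleep deprivation and 1.22% by ACE-seq), and at 37540001 to 37550000 (0.510%, 0.838% and 0.919%). They were lower at 37600001 to 37610000 (2.19%, 0.901% and 0.629%) and 37620001 to 37630000 (1.88%, 0.576% and 0.954%), both between beta and gamma.

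**Figure D4:**
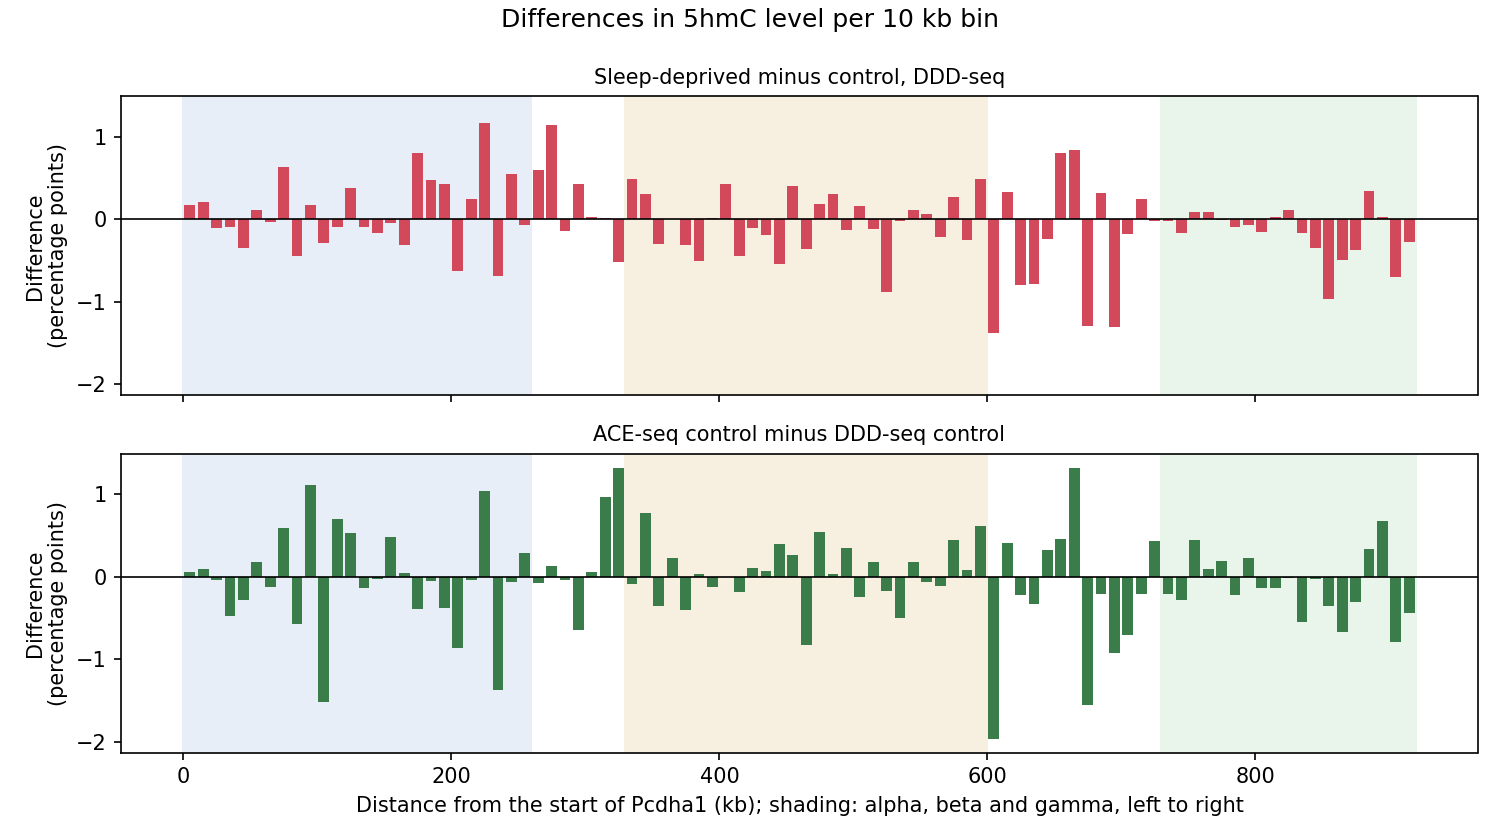
Difference in 5hmC level (percentage points) of each 10 kb bin against its distance from the start of Pcdha1, for the sleep-deprived minus control DDD-seq libraries (top) and ACE-seq minus DDD-seq control (bottom), with the alpha, beta and gamma parts shaded. Bars of both signs are mixed across alpha and beta, and in the 3 bins between Pcdhga12 and Pcdhgc3 all bars are below 0 in both panels.

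Genes that act with the clustered protocadherins were looked at by their gene-body level, beside a median of 1.33% over 21676 protein-coding genes in the control, 1.31% under sleep deprivation and 1.29% by ACE-seq. The chromatin architecture list holds CTCF, which binds protocadherin promoters and enhancers, and cohesin with its loader and release factor. All 8 of its genes were above the all-gene median in each library, and the list median was 2.94%, 2.45% and 2.50%. Ctcf had 2.79%, 2.68% and 2.27%, and the cohesin loader gene Nipbl had 3.22%, 3.45% and 3.07%, both named after their values were seen. The highest were the cohesin subunit genes Stag2 (4.09%, 4.28% and 4.60%, on chromosome X) and Stag1 (3.72%, 3.75% and 3.78%), and the lowest in the DDD-seq control were Smc3 (1.86%, 2.21% and 1.85%) and Smc1a (1.61%, 1.58% and 1.32%).

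The silencing list holds repressors and DNA methyltransferases, of which 3 of 7 were above the all-gene median in the control, 4 under sleep deprivation and 5 by ACE-seq. In the DDD-seq control the highest were the de novo methyltransferase gene Dnmt3a (1.63%, 1.46% and 1.42%) and Smchd1, a chromatin protein that represses the clusters (1.57%, 1.66% and 1.41%). The lowest there were Dnmt1 (1.18%, 1.15% and 1.07%) and the histone methyltransferase gene Setdb1 (1.17%, 1.50% and 1.19%). The order differed in the other libraries: Setdb1 was above Dnmt3a under sleep deprivation. Of the genes listed as signalling partners, 12 of 14 were above the all-gene median in each library, with list medians of 2.28%, 2.15% and 2.30%. The actin regulators of the WAVE complex Wasf1 (3.81%, 3.92% and 4.27%) and Abi2 (3.17%, 3.44% and 3.33%) were the highest. The kinase gene Ptk2b (1.15%, 1.26% and 1.19%) and the receptor kinase gene Ret (1.14%, 1.03% and 0.907%) were the lowest.

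Non-clustered protocadherins, which lie outside these clusters, were above the all-gene median in 9, 8 and 9 of 12 genes, with medians of 1.62%, 1.52% and 1.52%. In the DDD-seq control they ranged from Pcdh9 (4.42%, 4.57% and 4.35% over 89 bins) and Pcdh17 (2.56%, 2.56% and 1.996%) down to Pcdh18 (1.15%, 1.25% and 1.31%) and Pcdh12 (1.12%, 1.23% and 1.20%). In both other libraries Pcdh8 was the lowest (1.23%, 0.996% and 1.06%). The homeobox clusters, the other tandem arrays examined, had medians of 1.04%, 1.03% and 0.989% over 39 genes, of which 1, 0 and 1 were above the all-gene median. Hoxc11 (1.71%, 1.05% and 1.12%) and Hoxc12 (1.32%, 0.938% and 0.712%) were the highest in the DDD-seq control and Hoxd12 (0.771%, 1.26% and 0.898%) and Hoxc8 (0.691%, 1.03% and 0.593%) the lowest. The beta genes, with body medians of 1.02%, 1.02% and 1.12%, lay beside the homeobox genes, and no test of these differences was possible. Of the cell type markers, 3 of 6 granule cell genes were above the all-gene median in each library, with medians of 2.15%, 2.70% and 1.97%. Etv1 (6.52%, 6.70% and 6.42%) and Kcnd2 (5.36%, 5.26% and 5.14%) were the highest of them, and Neurod1 (1.06%, 1.25% and 0.921%) and Zic1 (0.920%, 0.932% and 1.002%) the lowest in the DDD-seq control. The Purkinje cell and astroglia lists had medians of 1.18 to 1.48%. In Purkinje cell markers the levels ran from Calb1 (1.55%, 1.49% and 1.47%) and Itpr1 (1.39%, 1.34% and 1.38%) to Pcp2 (1.12%, 0.998% and 0.841%) and Car8 (0.866%, 1.25% and 1.22%), in the order of the DDD-seq control. Of the oligodendrocyte markers, Mbp had 1.64%, 1.60% and 1.76% and Mog 1.04%, 1.14% and 1.30%. The astroglia markers were Slc1a3 (1.56%, 1.48% and 1.46%), Aqp4 (1.32%, 1.48% and 1.05%) and Gdf10 (1.06%, 1.40% and 1.18%). 5hmC levels are not expression values and do not identify cells.

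**Figure D5:**
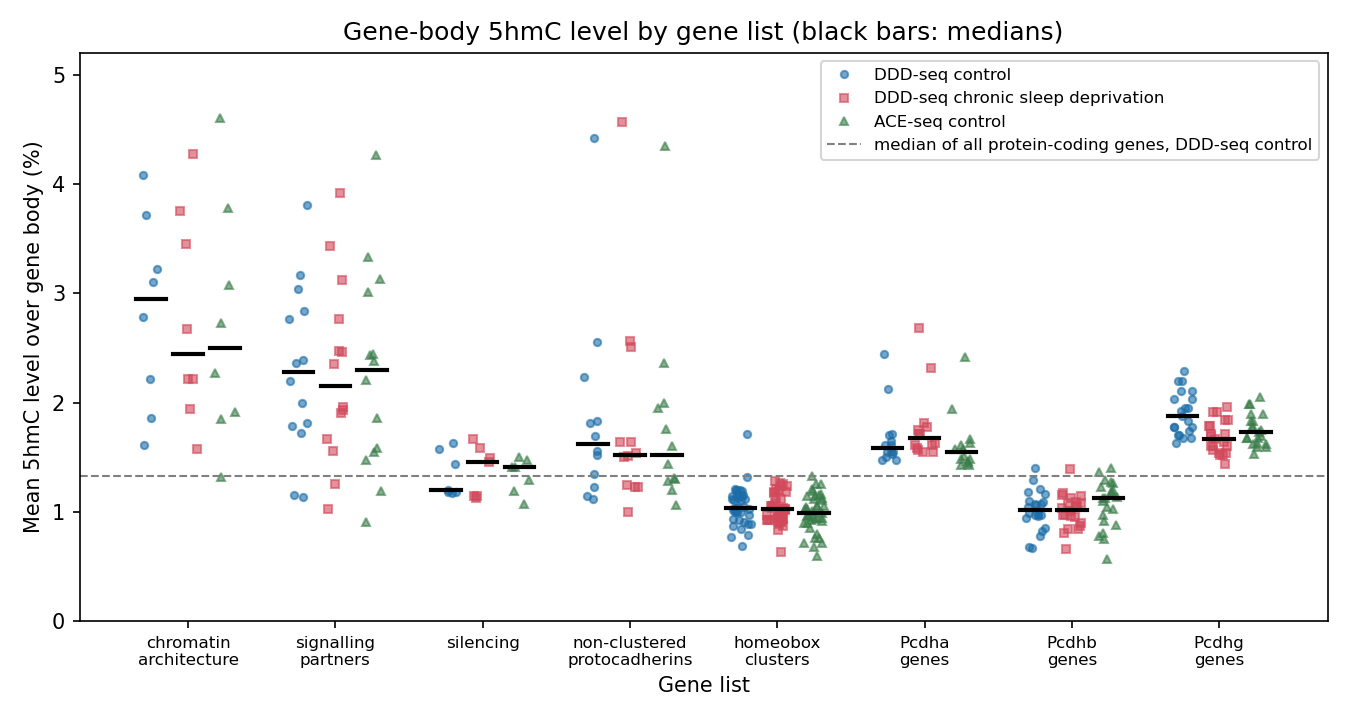
Mean 5hmC level (%) over the gene body for each gene of 5 lists and for the Pcdha, Pcdhb and Pcdhg genes, with 1 point per gene and library and black bars at the medians. The Pcdhb and homeobox medians lie near 1%, under the dashed line at the median of all protein-coding genes (1.33%), and the Pcdha and Pcdhg bodies lie above it.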

How the data were processed

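The deposited table holds a fraction per 10 kb bin for each of 3 libraries, per the file headers. FastQC, Trimmomatic and Bismark were used, per the submitters' processing notes. The sources used here do not state how the authors averaged sites, the cytosine contexts or the coverage required, and the notes give hg19 as build. The bins cover mouse chromosomes and were read as GRCm38. On 21 chromosomes the last bin ended 1.33 to 211.9 kb after the last gene of GRCm38.p6 (16.3 kb on chromosome 18). No other mouse build was compared, so these distances do not settle the build. Fractions were multiplied by 100. Bins without a value in every library were left out, leaving 262974. A bin belonged to a part when it overlapped its span by at least 1 bp. Bins at 0 got no fold.

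Genes were named by rule: all members by start bin, the 5 highest and 5 lowest bins of a part, bins past 1.5-fold in both comparisons, and the top and bottom 2 genes of each list in the DDD-seq control. Ctcf, Nipbl and Pcdh8 were named outside it, after their values were seen, and 1 list gene is not reported here. The members and lists were chosen with earlier results of these data known. The bin assignment and fold counts were tested on simulated data. Tables were made in Python 3.11.15 with pandas 2.3.3, numpy 2.4.6 and scipy 1.17.1, and plots with matplotlib 3.10.9.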

Additional observations from a re-analysis of the deposited data

How the results depend on the processing

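Of 126 values recomputed under alternatives, 94 moved by less than their tolerance, 32 by more, and 0 called values changed sign. A difference was called when past 2 times its SE. Smaller differences of alpha did change sign. Sleep-deprived minus control was 0.0725 points as a mean and -0.0374 as a median over bins. ACE-seq minus DDD-seq control went from -0.0486 to 0.0104 points without bins at 0. Alpha minus flanks in the DDD-seq control went from 0.202 to -0.0198 points with flanks of 500 kb. The tolerance was a 95% range from the SE over bins for levels and differences, 1.5 times for counts and a binomial range for percentiles. A minimum overlap of 5 kb, leaving out bins at 0, and flanks of 100 kb moved no value beyond it. The median over bins gave 1.22% for alpha in the sleep-deprived library. Leaving out bins of other protein-coding genes left the first 2 alpha bins (0.887%, 1.08% and 0.961%) and no value for beta or gamma. Sparing the 3 gene models that span the clusters, an alternative chosen after seeing the data, moved none of 9 levels beyond tolerance. With flanks of 500 kb, beta minus flanks was -0.479 points in the DDD-seq control, against -0.257. Among windows of chromosome 18 alone, alpha lay at percentiles 44.0, 54.8 and 47.0, gamma at 69.6, 53.9 and 64.8, and beta at 0 in the DDD-seq control.

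At 2-fold, sleep-deprived against control, 1 alpha bin and 0 beta bins were higher (5.95% of all bins) and 2 beta bins lower (4.97%). Over the whole region 8 of 90 bins (8.89%) were lower, most of them between the families. ACE-seq against the DDD-seq control gave 1 higher and 1 lower in alpha, 2 and 1 in beta, and 0 and 0 in gamma, against 5.96% and 7.41% of all bins. In windows of 50 kb, 0 windows of alpha, beta or gamma were past 1.5-fold in either comparison. Windows between the families are not covered by these counts. Scaled to the autosomal mean, ACE-seq was at least 1.5-fold lower in 1 beta bin and higher in 2 gamma bins. The cause of these shifts was not tested. Unknown depth limits what single bins can show. No paired analysis was possible because each group has 1 library and no test was made.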
